A study of Homo sapiens with 5 samples.

Results

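The 6 genes described here encode the platelet-derived growth factor (PDGF) receptors and their ligands: the receptors PDGFRB and PDGFRA and the ligands PDGFA, PDGFB, PDGFC and PDGFD. They were taken by symbol from a table of 57221 rows of read counts, and the set was chosen by the read counts of PDGFRB in these same libraries, where it is abundant, so its level is given as a description and is not a finding. RNA was sequenced from NK92MI, an established human natural killer (NK) cell line that carries an introduced IL2 gene and grows without added interleukin 2. Of the libraries, 3 came from cells kept for 48 h with 10 µM UNC1999, an inhibitor of the histone H3 lysine 27 methyltransferases EZH2 and EZH1, and 2 came from cells kept with the solvent DMSO; all cells were of the same line, in a medium with horse serum. The labels do not tell whether each library had its own culture, so each p-value reflects no more than the spread among these libraries, which may be technical. The libraries held 8442908 to 8748106 counts each.

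PDGFs are secreted dimers that bind and pair receptor tyrosine kinases at the cell surface. The paired receptors phosphorylate each other and recruit adaptors, phosphoinositide 3-kinase and phospholipase C gamma. PDGFRB is best known from pericytes, smooth muscle cells and fibroblasts, where PDGF-B and PDGF-D are its main ligands, whereas PDGF-A and PDGF-C act through PDGFRA. In human NK cells PDGF-D is also known as a ligand of the activating receptor NKp44, the product of NCR2.

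NK92MI cells held many PDGFRB reads and almost none of the other 5 genes. Of all reads assigned to the 6 genes over the 5 libraries, 99.4% belonged to PDGFRB (11885 counts), and the other 5 genes together had 68 counts. PDGFRA and PDGFC were at 0 in every library. PDGFA had 1 count in all, in UNC1999 replicate 1, and PDGFB had 1, in UNC1999 replicate 3. With 0 reads found, up to 3 could have been missed, which is 0.327 to 0.341 CPM (read counts scaled to library size with TMM factors) in the UNC1999 libraries and 0.357 to 0.372 CPM in the DMSO libraries, which covers counting error only. PDGFD was the ligand gene above that limit in these libraries, at 15, 19 and 12 counts in UNC1999 and 8 and 12 counts in DMSO. In bulk RNA, fewer cells with a transcript and less of it per cell cannot be told apart.

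**Figure D1:**
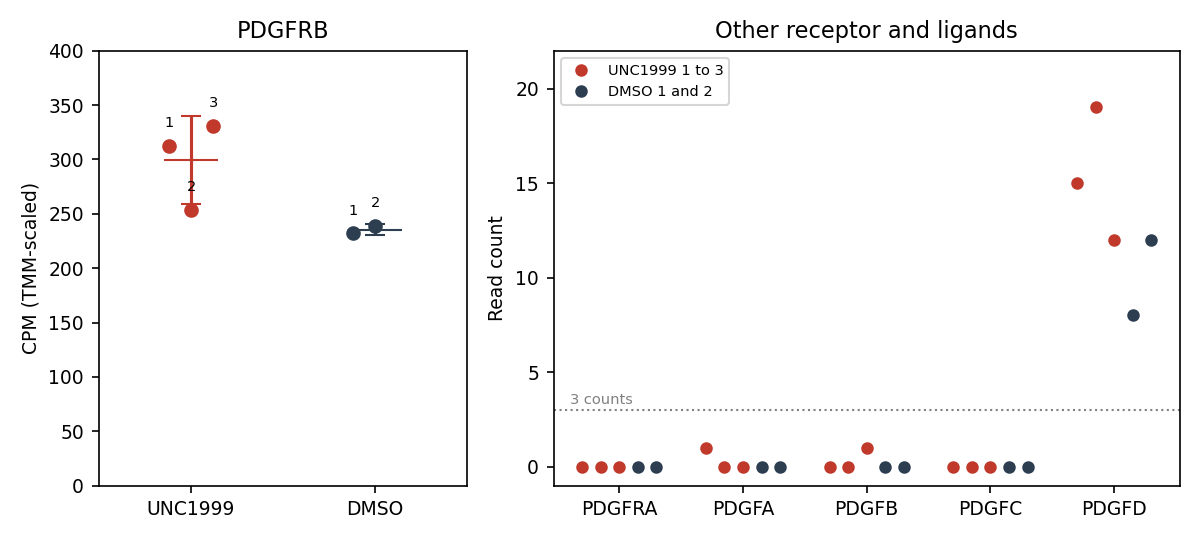
Left, CPM of PDGFRB in each library (points, with replicate numbers), with the mean (line) and SD (bars) of each group. Right, read counts of the other 5 genes in each library, with a dotted line at 3 counts. PDGFRB lies between 253.9 and 331.2 CPM in UNC1999 and between 231.9 and 239.0 CPM in DMSO, and on the right only PDGFD lies above the line.

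To show the region upstream of the abundant receptor gene beside that of its relative at 0 counts, a stretch of each promoter was read from RefSeq (build GRCh38.p14), from 250 to 51 bases before an annotated start. PDGFRB has 1 such start, with the stretch at chr5:150155896-150156095 on the minus strand. For PDGFRA the stretch before the second of its starts is shown, chr4:54233710-54233909 on the plus strand, outside annotated exons. That start lies 4863 bases into the gene, and the stretch before the first start, which overlaps an exon by 146 bases, is not shown. Capitals mark CCAATCAG, which contains the CCAAT box.
PDGFRB: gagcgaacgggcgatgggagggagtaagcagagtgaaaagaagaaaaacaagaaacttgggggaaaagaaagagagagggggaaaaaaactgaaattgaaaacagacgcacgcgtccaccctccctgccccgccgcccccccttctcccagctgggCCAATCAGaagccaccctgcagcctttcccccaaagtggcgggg
PDGFRA: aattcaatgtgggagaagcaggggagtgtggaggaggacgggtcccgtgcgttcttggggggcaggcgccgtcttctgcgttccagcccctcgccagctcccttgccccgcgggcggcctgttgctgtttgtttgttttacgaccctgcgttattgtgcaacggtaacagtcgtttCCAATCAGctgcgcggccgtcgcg

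A CCAAT box bound by the factor NF-Y is known from the mouse Pdgfrb promoter. In the stretch above it begins 94 bases before the start of PDGFRB, and in PDGFRA it begins 74 bases before the start shown. CCAAT, read on both strands, is in 27.4% of the 35116 promoter stretches of the same length in the RefSeq table, and CCAATCAG in 3.004%. The GC box letters GGGCGG, also read on both strands, are in both stretches and in 34.96% of all, and TATAAA is in neither and in 7.63% of all. The stretch before the first PDGFRA start holds neither CCAAT nor GGGCGG. Among the other 4 genes the table held 4 stretches for PDGFA, of which 1 holds CCAAT, and 1 for PDGFD, which does not. A match is a description of the sequence, not a bound site. The NF-Y subunit gene NFYA had 30.0, 37.4 and 33.0 CPM in UNC1999 against 28.6 and 23.4 CPM in DMSO. Its log2 difference was 0.37 ± 0.13 (SE; edgeR adjusted p = 0.0299; 0.49 with the offsets described below). The NFYA call was lost in 2 of 15 alternatives, without DMSO replicate 2 (0.23) and in the DESeq2 Wald test (0.39, DESeq2 adjusted p = 0.0728). NFYB (log2 fold change 0.27) and NFYC (-0.23) were not called.

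PDGFRB ranked high among all genes of the line. It lies on chromosome 5 from 150113837 to 150155872 on the minus strand (GENCODE 29, build GRCh38, while the submitters' notes name hg19), and no other annotated gene overlaps it there. By CPM it stood at rank 570, 722 and 527 of 57221 rows in the UNC1999 libraries and at rank 963 and 919 in the DMSO libraries. Per length of exon sequence it averaged 41.9 ± 5.65 RPKM (CPM per kb) in UNC1999 and 33.0 ± 0.70 RPKM in DMSO (SD, n = 3 and n = 2). Those per-length levels were above those of NCAM1, the NK surface marker CD56, with 15.1 ± 1.78 RPKM in UNC1999 and 16.4 ± 2.12 RPKM in DMSO, and far below those of the interleukin 2 receptor gene IL2RB, with 359.7 ± 36.7 RPKM in UNC1999 and 365.5 ± 11.9 RPKM in DMSO. EOMES, a transcription factor gene of NK cells, had 27.9 ± 1.78 RPKM in UNC1999 and 46.6 ± 1.26 RPKM in DMSO, so that PDGFRB lay above it in UNC1999 and below it in DMSO.

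Against a list of 58 human receptor tyrosine kinase genes, drawn up with the values known, PDGFRB was the most abundant by CPM in DMSO and the second per length in both groups. The other receptor at that level was EPHA1, an ephrin receptor gene, with 50.4 ± 8.68 RPKM in UNC1999 and 40.4 ± 3.41 RPKM in DMSO (SD, n = 3 and n = 2). In UNC1999 the SD ranges of these neighbours in the order overlap, and EPHA1 was 1.13 to 1.32 times PDGFRB in the single libraries. EPHA1 overlaps ZYX, which had 31036 counts over the 5 libraries, and EPHA1-AS1 on the opposite strand in GENCODE 29. No strand setting was given, so how reads in the shared stretches were assigned is not known. The size of these stretches was not measured. The next gene per length was LMTK2, with 6.77 ± 0.106 RPKM in UNC1999 and 10.2 ± 1.66 RPKM in DMSO. PDGFRB gave 41.4%, 37.8% and 39.5% of all counts of the 58 genes in the UNC1999 libraries and 34.5% and 37.2% in the DMSO libraries. Of the 58 genes, 18 were at 0 in every library and 17 had more than 3 counts in each.

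**Figure D2:**
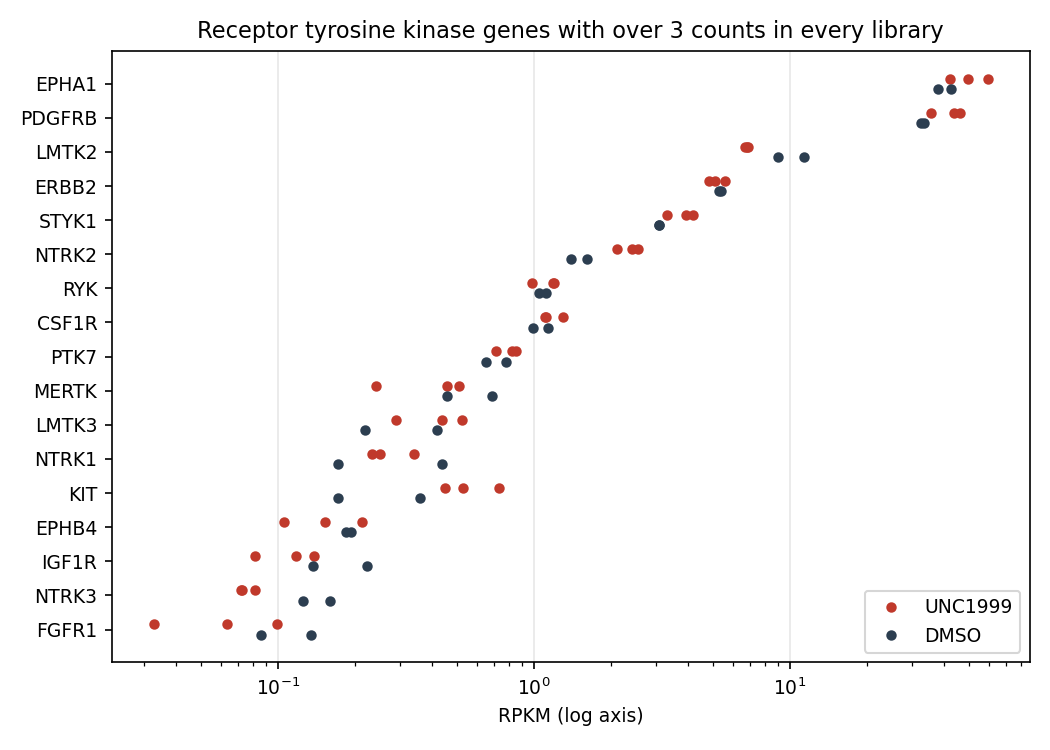
RPKM on a log axis of the 17 receptor tyrosine kinase genes with more than 3 counts in every library, ordered by their mean in DMSO, with 1 point per library (UNC1999 above DMSO in each row). EPHA1 and PDGFRB stand apart from LMTK2 and the genes below it in all 5 libraries.

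With UNC1999 the PDGFRB level was 299.2 ± 40.3 CPM, against 235.5 ± 5.0 CPM with DMSO (SD, n = 3 and n = 2). PDGFRB had 312.5, 253.9 and 331.2 CPM in UNC1999 against 231.9 and 239.0 CPM in DMSO, from 2767, 2329 and 2911 counts in UNC1999 and 1868 and 2010 counts in DMSO. The groups did not overlap, but UNC1999 replicate 2 lay close to the DMSO libraries. PDGFRB rose by 0.35 ± 0.12 on the log2 scale (SE; 95% interval 0.11 to 0.58; edgeR adjusted p = 0.0172 over 13075 tested genes). In that comparison 35.2% of all tested genes were called at an adjusted p under 0.05, with 15.7% of all higher and 19.5% lower, and in 24.2% every UNC1999 library lay above both DMSO libraries. Among the 6 genes 1 was called, 1 was tested and not called, and 4 were not tested.

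The PDGFRB call was lost in 4 of the 5 fits with 1 library left out. It was not called without DMSO replicate 1 (0.32, edgeR adjusted p = 0.181), DMSO replicate 2 (0.36, 0.114), UNC1999 replicate 1 (0.32, 0.0762) or UNC1999 replicate 3 (0.27, 0.122), and without UNC1999 replicate 2 it was 0.46 with an edgeR adjusted p of 7.52e-06. The GC content of the longest PDGFRB transcript is 57.6%. With offsets that remove any trend of each library with GC content and transcript length, fitted on 11017 annotated genes, PDGFRB had a log2 fold change of 0.31 (95% interval 0.17 to 0.45, edgeR adjusted p = 0.000746). With these offsets, fits added after the values were seen gave 0.25 to 0.37 with any 1 library left out. The call held without each UNC1999 library (edgeR adjusted p of 0.000166 to 0.00912). The value was 0.25 without DMSO replicate 1 and 0.37 without DMSO replicate 2, each against 1 DMSO library.

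**Figure D3:**
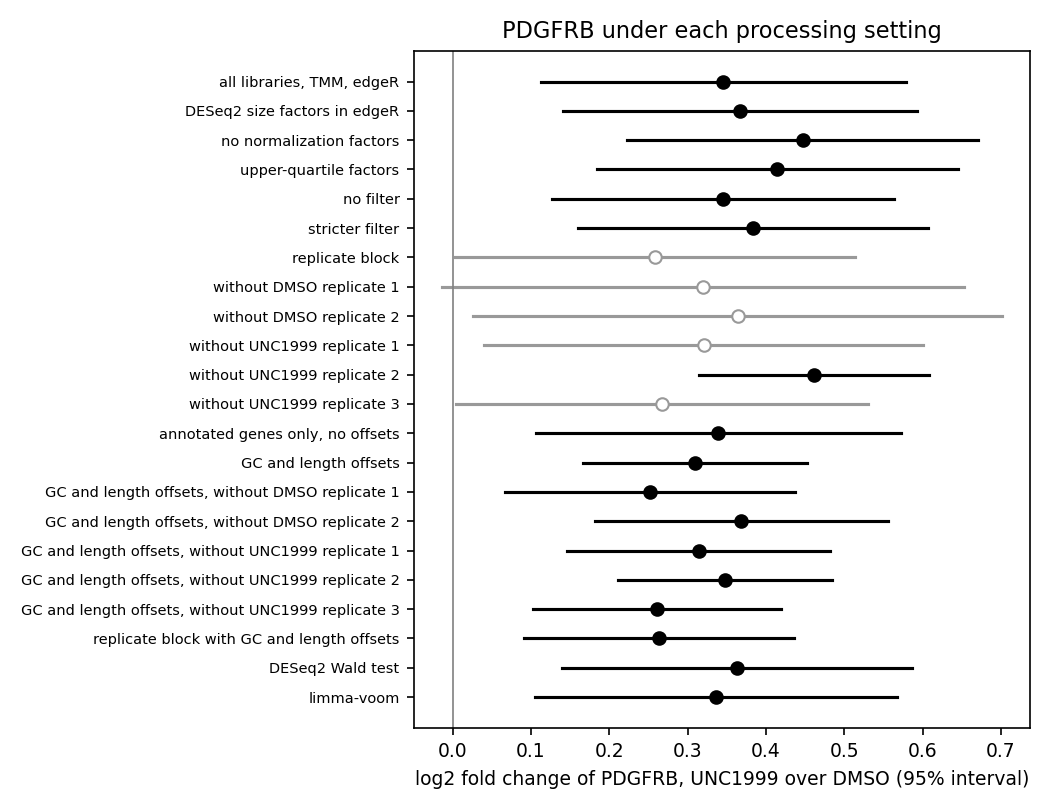
Log2 fold change of PDGFRB, UNC1999 over DMSO, with its 95% interval in each processing setting. Filled black points have an adjusted p under 0.05 and open grey points do not. The value stays between 0.25 and 0.46, and the open points are the replicate block and 4 of the fits with 1 library left out.

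PDGFD, the ligand gene, was tested and not called. It had 1.69, 2.07 and 1.37 CPM in UNC1999 against 0.993 and 1.43 CPM in DMSO, and the groups overlapped. The log2 fold change was 0.49 ± 0.41 (SE; 95% interval -0.33 to 1.32, edgeR adjusted p = 0.368), an interval that holds a fall as well as a rise above 2-fold. The single counts have exact 95% Poisson intervals of 8.4 to 24.7, 11.4 to 29.7 and 6.2 to 21.0 in UNC1999, and of 3.45 to 15.8 and 6.2 to 21.0 in DMSO, and cover counting error only. PDGFD lies on chromosome 11 from 103907186 to 104164379 on the minus strand (GENCODE 29, GRCh38), where DDI1 on the other strand, at 0 counts in all libraries, and an antisense gene overlap it. The other 4 genes did not pass the filter on low counts and were not tested. Per length PDGFRB was at least 1059-fold above PDGFRA in every UNC1999 library and at least 849-fold in every DMSO library, with PDGFRA taken at 3 counts per library.

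NCR2, the gene of the second receptor known for PDGF-D in NK cells, was the most abundant gene of a wider list of 6 receptors and coreceptors. It had 89.4, 79.1 and 99.2 CPM in UNC1999 against 113.4 and 106.5 CPM in DMSO, with every UNC1999 library below both DMSO libraries. Among all tested genes 30.4% lay below both in this way. NCR2 fell by 0.30 ± 0.11 on the log2 scale (SE; edgeR adjusted p = 0.0354), opposite in sign to PDGFRB. The call was lost in 10 of 15 alternatives, among them DESeq2 size factors (-0.28, edgeR adjusted p = 0.0524), offsets for GC content and length (-0.19, 0.0644) and leaving out DMSO replicate 1 (0.266), DMSO replicate 2 (0.108) or UNC1999 replicate 1 (0.0993). Per length NCR2 had 73.2 ± 8.24 RPKM in UNC1999 and 90.2 ± 3.96 RPKM in DMSO, above PDGFRB in both groups. ENG, a coreceptor of the TGF-beta family, had a log2 fold change of 0.04 and was not called. LRP1, which is known to bind PDGFRB, reached 4 counts at most, and NRP1, NRP2 and PDGFRL were at 0 in every library.

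Of the other class III and class V receptor kinase genes, KIT and CSF1R were tested. KIT, the stem cell factor receptor gene, had 36, 27 and 22 counts in UNC1999 against 16 and 8 counts in DMSO. Each UNC1999 library lay above both DMSO libraries, as in 24.2% of all tested genes. The log2 difference of KIT was 1.11 ± 0.36 (SE; edgeR adjusted p = 0.0129; 0.97 with offsets). The difference was 1.72 when DMSO replicate 1 was left out. It was not called when DMSO replicate 2 (0.67, edgeR adjusted p = 0.277) or UNC1999 replicate 1 (0.90, 0.0642) was left out. FLT3, FLT1 and KDR were at 0 in every library, and FLT4 had at most 1 count in any. Among the VEGF genes, relatives of the PDGF ligands, VEGFB was the tested one, with a log2 fold change of 0.17 (95% interval -0.16 to 0.50, edgeR adjusted p = 0.445).

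CSF1R, the macrophage growth factor receptor gene, is the neighbour of PDGFRB on chromosome 5. In GENCODE 29 (GRCh38) its start lies 464 bases beyond the 3′ end of PDGFRB, on the same strand. It had 51, 52 and 59 counts in UNC1999 against 41 and 49 counts in DMSO, a log2 fold change of 0.14 (95% interval -0.28 to 0.57, edgeR adjusted p = 0.638). Per length PDGFRB was 35.7 times CSF1R in UNC1999 and 31.1 times in DMSO. On the other side of PDGFRB, CDX1 and SLC6A7 had at most 2 counts in any library. Of 13 other protein-coding genes lying at least partly within 300 kb of PDGFRB, 10 were tested, 1 was called higher (SLC26A2, a sulfate transporter gene, by 0.77) and 3 lower (PPARGC1B at -0.49, CAMK2A at -1.07 and TCOF1 at -0.34), beside the 15.7% and 19.5% of all tested genes. With offsets 3 were higher (SLC26A2 at 0.33, CD74 at 0.30 and RPS14 at 0.24) and 3 lower (PPARGC1B, ARSI and TCOF1), beside 15.1% and 19.1%, and CAMK2A was not called. RPS14 changed sign with the offsets. Without them it had -0.12 and CD74 had 0.27, and neither was called.

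**Figure D4:**
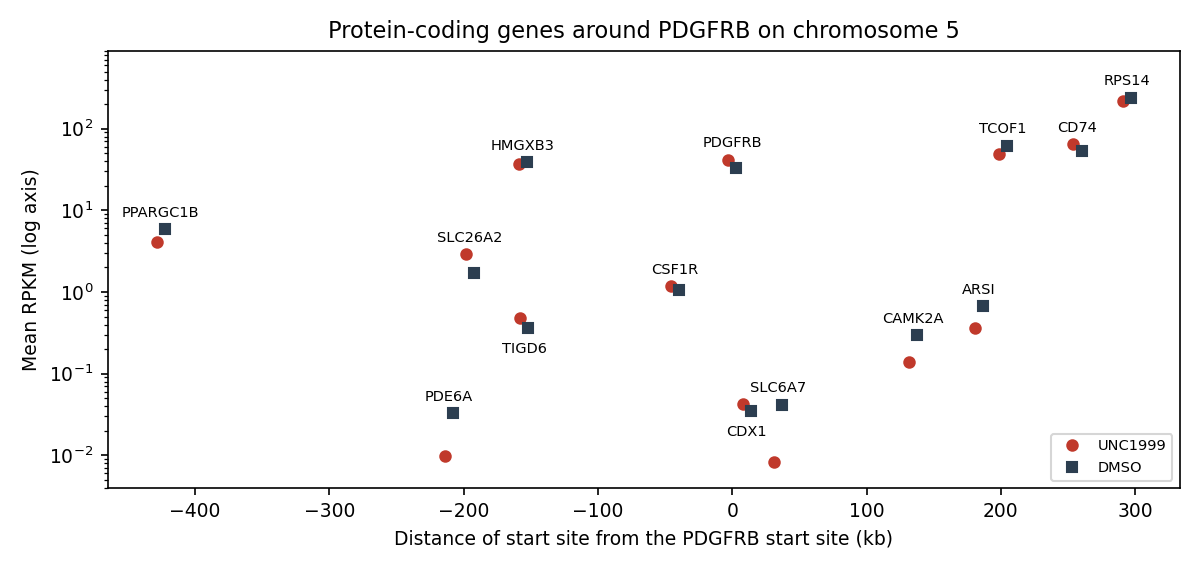
Mean RPKM on a log axis of the protein-coding genes lying at least partly within 300 kb of PDGFRB, against the distance of their start site from that of PDGFRB (circles UNC1999, squares DMSO, drawn slightly to the left and right). In both groups PDGFRB stands above CSF1R on one side and CDX1 and SLC6A7 on the other, while HMGXB3, TCOF1, CD74 and RPS14 are near or above its level.

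PDGF precursors are cut by proteases before they act. FURIN, of the convertase family that cuts PDGF-A and PDGF-B, had 281.6, 226.8 and 331.9 CPM in UNC1999 against 192.3 and 220.6 CPM in DMSO, with replicate 2 again the lowest of the UNC1999 libraries. It rose by 0.44 ± 0.12 on the log2 scale (SE; edgeR adjusted p = 0.00515), and by 0.32 with offsets (0.00181). With a replicate block FURIN had 0.295 and was not called (edgeR adjusted p = 0.071). It was not called when DMSO replicate 1 (0.34, edgeR adjusted p = 0.172) or UNC1999 replicate 3 (0.30, 0.0748) was left out. PLAU, the urokinase gene, whose product can release active PDGF-D, had 35.01, 33.9 and 33.0 CPM in UNC1999 against 54.4 and 44.0 CPM in DMSO. It fell by 0.53 on the log2 scale (edgeR adjusted p = 0.000716; 0.27 with offsets), and had -0.38 (edgeR adjusted p = 0.0935) without DMSO replicate 1. ADAM10, a membrane sheddase gene, rose by 0.66 and had 0.10 (edgeR adjusted p = 0.396) with offsets. ST14, the matriptase gene, was at 0 in every library, and PLAT, the protease gene for PDGF-C, had at most 9 counts. Of 9 protease genes, 6 were tested, 2 were higher and 1 was lower, beside the 35.2% of all tested genes called in either direction, and 1 and 1 with offsets, where 34.2% of all tested genes were called.

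Genes for proteins that bind the activated receptor moved in both directions. Of 35 adaptor and effector genes, 27 were tested, 7 were higher, 7 were lower and 13 were not called, with a median log2 fold change of 0.06 beside -0.01 over all tested genes. The called share was 51.9%, beside 35.2% of all tested genes (15.7% higher and 19.5% lower). With offsets 6 were higher and 6 lower, where 34.2% of all were called. PIK3R1, the regulatory subunit gene of phosphoinositide 3-kinase, had 78.7, 71.2 and 78.9 CPM in UNC1999 against 34.0 and 41.4 CPM in DMSO, and rose by 1.01 ± 0.12 on the log2 scale (SE, edgeR adjusted p = 9e-08; 0.64 with offsets). The RAS exchange factor genes SOS2 (1.09; 0.77 with offsets) and SOS1 (0.73; 0.22 with offsets) also rose. The adaptor genes CRKL (-0.62; -0.35 with offsets) and NCK2 (-0.58; -0.51 with offsets) and the kinase gene FYN (-0.57; -0.23 with offsets) fell. SLC9A3R1, the gene of the scaffold NHERF1 that binds PDGF receptors, had 973.9 ± 136.7 CPM in UNC1999 and 845.9 ± 1.39 CPM in DMSO (SD, n = 3 and n = 2) and was not called (log2 fold change 0.20, edgeR adjusted p = 0.166).

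Of 22 listed genes for phosphatases, ubiquitin ligases and other brakes on receptor signalling, 21 were in the table, 15 were tested, 2 were higher and 3 lower (median -0.15), and 1 and 4 with offsets. The called share of 33.3% is near the 35.2% of all tested genes. PTPN1, the gene of the phosphatase PTP1B that acts on PDGFRB, had 192.0, 217.9 and 200.1 CPM in UNC1999 against 326.9 and 304.2 CPM in DMSO and fell by 0.63 on the log2 scale (edgeR adjusted p = 1.68e-05; 0.30 with offsets). SPRY1 (-0.55; -0.42 with offsets) and SPRED2 (-0.34; -0.016 with offsets, not called), inhibitors of RAS signalling, were the other lower genes. SPRY1 was not called without DMSO replicate 2 (-0.41, edgeR adjusted p = 0.0901). The higher ones, PTPN12 (0.39; 0.20 with offsets) and the ubiquitin ligase gene CBLB (0.34; 0.05 with offsets), were not called with offsets. Leaving out DMSO replicate 1 or UNC1999 replicate 1 also ended the calls of SPRED2 (edgeR adjusted p = 0.333 and 0.168), PTPN12 (0.382 and 0.0917) and CBLB (0.0523 and 0.154), and leaving out DMSO replicate 2 that of CBLB (0.379).

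Of 24 genes known as early responses to PDGF in other cells, 16 were tested, 1 was higher and 6 were lower (median -0.26), beside 15.7% higher and 19.5% lower among all tested genes. With offsets the counts were 1 and 4, beside 15.1% and 19.1%. FOSB, a transcription factor gene, had 4.97, 5.56 and 6.14 CPM in UNC1999 against 1.49 and 2.73 CPM in DMSO, and rose by 1.38 ± 0.28 on the log2 scale (SE; edgeR adjusted p = 0.000172; 1.44 with offsets). MYC (-1.03; -0.77 with offsets), HBEGF (-1.39; -1.03 with offsets) and DUSP5, a MAP kinase phosphatase gene (-0.70; -0.53 with offsets), fell. These genes respond to many signals, and this list does not measure PDGF signalling. Of 14 genes for transcription regulators linked to PDGFRB or PDGFA, 11 were tested, 2 were higher and 2 lower, and the counts with offsets were also 2 and 2. The called share of 36.4% is near the 35.2% of all tested genes. SP1, a GC box factor gene, fell by 0.44 (0.50 with offsets; edgeR adjusted p = 0.0552 without DMSO replicate 1). TFAP2A (-0.40; -0.057 with offsets) was called lower and SP3 (0.39; -0.017 with offsets) higher without offsets and neither with them. TFAP2A was also not called without DMSO replicate 1 (edgeR adjusted p = 0.373) or UNC1999 replicate 2 (0.134), and SP3 lost its call with DMSO replicate 1 (0.066), DMSO replicate 2 (0.124) or UNC1999 replicate 1 (0.0509) left out.

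**Figure D5:**
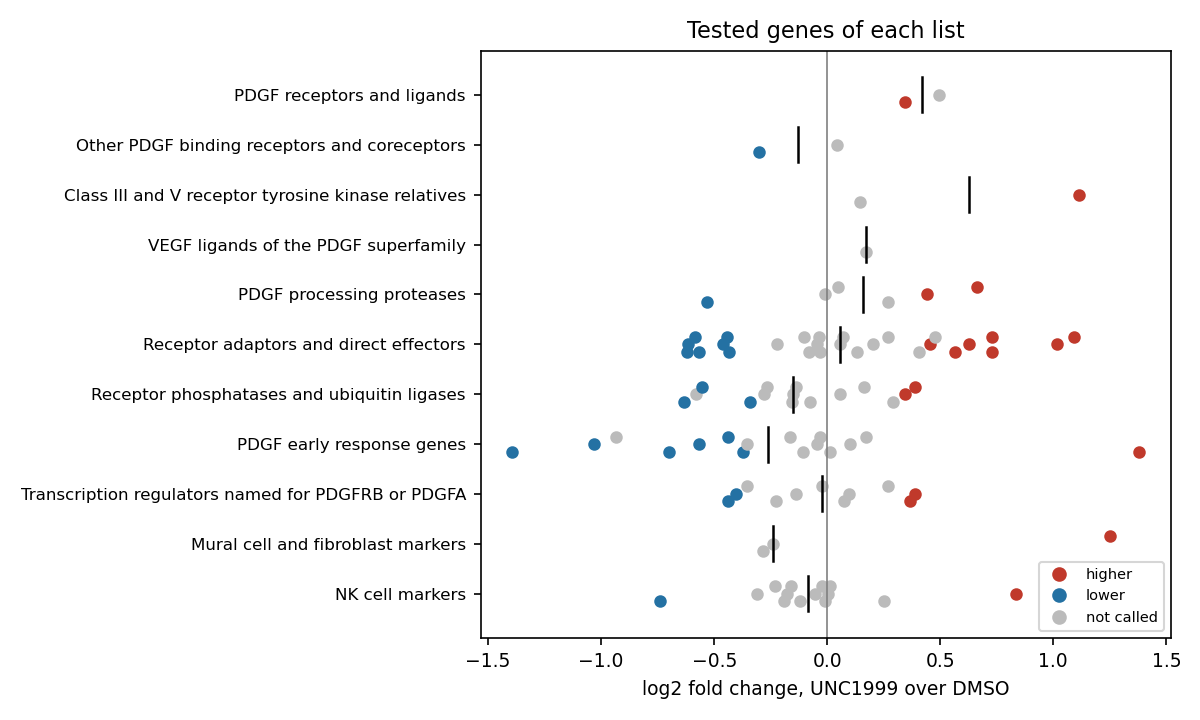
Log2 fold change, UNC1999 over DMSO, of the tested genes of each list (points), with the list median (vertical bar). Red and blue points passed the test as higher and lower, and grey points did not. The proteases, adaptors, phosphatases, early response genes, transcription regulators and NK markers hold called genes on both sides of 0, and PDGFRB is the red point in the top row.

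The libraries had the markers of NK cells and few reads from genes of the cells PDGFRB is best known from. Of 15 NK markers 14 were tested, NCR3 was at 0 in every library, and the summed level was 6733 to 7626 CPM in UNC1999 and 7414 to 7585 CPM in DMSO. CD7 (log2 fold change 0.84) was higher and EOMES (-0.74) lower, and with offsets PRF1 was also higher and KLRD1 and KLRC1 also lower. The called share of 14.3% was below the 35.2% of all tested genes. With offsets 2 were higher and 3 lower, beside 15.1% and 19.1% of all tested genes. Of 17 mural cell and fibroblast markers, 6 were at 0 in every library and 13 had at most 10 counts in all, among them COL1A1, COL1A2, DCN, LUM and CSPG4. Their summed level was 7.74 to 11.4 CPM in UNC1999 and 8.32 to 8.69 CPM in DMSO, against 253.9 to 331.2 CPM and 231.9 to 239.0 CPM of PDGFRB in the same groups. Of the 17 markers 3 were tested, with a median log2 fold change of -0.24 and a called share of 33.3%, near the 35.2% of all tested genes. RGS5 (-0.28, 1 of its rows) and TAGLN (-0.24) were not called. The called marker, ACTA2, had 19, 14 and 14 counts in UNC1999 against 5 and 7 counts in DMSO (log2 fold change 1.25, edgeR adjusted p = 0.0308; not called when DMSO replicate 1, DMSO replicate 2 or UNC1999 replicate 1 was left out, at 0.243, 0.109 and 0.0967).

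The 5 genes whose profile over the 5 libraries was most like that of PDGFRB were HPS6, FHOD1, LRRC14, CENPB and RP11-196G11.6, among 9311 genes whose average log2 CPM reached 3. Likeness was the root mean square difference of log2 CPM after centring each gene, which was 0.012 for HPS6 and 0.023 for RP11-196G11.6. FHOD1, a formin gene, had 143.8, 115.4 and 148.4 CPM in UNC1999 against 104.8 and 107.1 CPM in DMSO. Replicate 2 was the lowest of the UNC1999 libraries as in PDGFRB, which follows from the choice of FHOD1 by its likeness to PDGFRB. The 4 of these genes with an annotation had a GC content of 59.8% to 66.2%. With offsets their log2 fold changes were 0.24 (HPS6), 0.30 (FHOD1), 0.12 (LRRC14, not called) and 0.21 (CENPB), against 0.31 for PDGFRB. The part of GC content in this likeness was not tested.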

How the data were processed

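Whole-number read counts per gene symbol were deposited by the authors, 1 column per library, over 57221 rows. Build hg19 and the tools HTSeq 0.13.5, STAR 2.7.9, edgeR 3.34.0 and fastp are listed in the submitters' processing notes; roles, annotation and strand setting: not given in the sources used here. Libraries were NEBNext Ultra preparations of total RNA, per the labels' protocols, with 8644161, 8718661 and 8687863 counts in UNC1999 and 8442908 and 8748106 in DMSO.

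All rows passing filterByExpr (13075) were fitted in R 4.3.3 with edgeR 4.0.16, using TMM factors, glmQLFit and glmQLFTest for UNC1999 over DMSO, Benjamini-Hochberg adjustment over all tested rows, threshold 0.05, log2 CPM with a prior count of 2. RPKM divides CPM by the union of exons in GENCODE 29. The steps were tested on simulated counts. Alternatives were DESeq2 1.42.0, limma-voom 3.58.1, other factors and filters, a replicate block, each library left out, and spline offsets for GC content and transcript length (84.3% of tested rows had both). The members and lists were chosen with earlier results of these data known. Named genes were the 6 members, every called gene of the short lists, the 3 called genes of smallest p per direction of the others (with none called, the most abundant), and 5 genes of like profile; other genes were named after their values were seen. Symbols on several rows (222, RGS5 among them) were kept as separate rows.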

Additional observations from a re-analysis of the deposited data

How the results depend on the processing

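PDGFRB was higher in UNC1999 in all 21 alternatives (log2 fold change 0.25 to 0.46). It kept its call in 16, among them every fit added after the values were seen, while the 5 that lost it were planned. It was not called in 4 of the fits with 1 library left out, whose values ran from 0.27 to 0.46, or with a replicate block (0.26, edgeR adjusted p = 0.12). The replicate numbers are not stated to pair libraries, and same-numbered libraries deviated together weakly (r = 0.066 and 0.038 across genes for replicates 1 and 2). The deviations of DMSO replicates 1 and 2 from their mean mirror each other, so these r values are not separate checks. With the block and offsets together, added after the values were seen like the offsets with 1 library left out, PDGFRB had 0.26 (edgeR adjusted p = 0.0344). PDGFD was not called in any of 19 alternatives that gave an adjusted p. Its log2 fold change ran from 0.09 to 0.78 in these, and from 0.26 to 0.78 with 1 library left out and no offsets.

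Without normalization factors the median of all genes moved by 0.10 (log2), PDGFRB had 0.45, its mean was 225.5 CPM in DMSO, and 62.9% of calls were higher, against 44.7% with TMM and 56.5% with upper-quartile factors. By the longest transcript PDGFRB had 52.3 RPKM in UNC1999 and 41.2 RPKM in DMSO. With 1 library left out, all-gene calls ran from 2525 to 5892 (4603 with all) and calls in the pathway lists from 20 to 40 (35 with all). Both were lowest without DMSO replicate 1, and the cause was not tested. SP3 turned to -0.017 with offsets, and VEGFB to -0.023 without DMSO replicate 1, within a range of -0.023 to 0.39 over the fits with 1 library left out; the cause was not tested. Of 32 other named genes that were called, 13 kept the call in all settings tried for them. Counts of 0 to 19 limit the ligands and PDGFRA.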
